A study of Mus musculus with 31 samples.

Results

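The regions described here are accessible sites in the introns of protein-coding genes that lie away from promoters and do not carry the consensus of the AP-1 transcription factors (TFs) at their summit. They come from 1 ATAC-seq library of NIH-3T3, an established line of mouse fibroblasts, here in its parental form without any added TF and grown in medium with serum. In ATAC-seq the Tn5 transposase inserts adapters where DNA is free of nucleosomes, so that fragments pile up over open chromatin. The other 30 samples of the series, with overexpressed TFs or with the rtTA3G activator alone, were not analysed here. Members were peaks whose interval lay more than 1 kb from the start (TSS) of any annotated transcript, and whose summit, the base with the most fragments, fell in the span of a protein-coding gene, in no exon and in a base that is not soft-masked as repeated sequence. The last condition was that the 7 bases TGACTCA, the TPA response element bound by AP-1, were absent on both strands from the 101 bp centred on the summit. Of the 63456 peaks of the library, 47192 were more than 1 kb from any TSS, 20032 of these had the summit in an intron of a coding gene, and 18141 of the latter were in bases that are not soft-masked. The heptamer was present at 4868 of these summits and absent at 13273, which were the members and made up 20.9% of all peaks. No replicate library was at hand, and the peaks of a library are not replicates of a condition. Intervals given below are 95% intervals for counting error only, and the values describe this library without a test.

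AP-1 dimers of FOS and JUN proteins are the best known openers of distal enhancers in fibroblasts, so that intronic sites without their consensus are the sites where other factors, or weaker forms of the AP-1 sequence, can be looked for. Introns hold enhancers, insulators and alternative promoters, and the first intron, which begins at the first splice site after the promoter, is known to be especially rich in regulatory sequence. Besides AP-1, the TEAD factors (DNA-binding partners of YAP and TAZ), the RUNX factors and the NFI factors are known at enhancers of mesenchymal cells, whereas CTCF, a zinc finger protein, binds insulators and the ends of chromatin loops.

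The identity of the cells was looked at through their promoters. All 8 of 8 fibroblast marker genes (Col1a1, Col1a2, Col3a1, Vim, Fn1, Thy1, Pdgfrb and Prrx1) had a promoter peak, which is a peak at most 1 kb from a TSS. The same was found for 1 of 4 epithelial markers (Krt8, whereas Cdh1, Epcam and Krt18 had none), for 1 of 4 blood markers (Spi1) and for 1 of 4 neuronal markers (Gria2). Over all 21938 coding genes, 11788 (53.7%) had a promoter peak.

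Windows of 101 bp show what the members look like. For each motif they are from the members with the highest fold enrichment in first and in later introns, with 1 chromosome left out. They are from the mm10 reference on its forward strand, in lower case, with the match to the motif, on either strand, in capitals. The first pair holds the CTCF core, with the match 29 and 33 bp to the right of the summit. The site in intron 1 of Ctse (cathepsin E) is at chr1:131658210-131658310 and that in intron 4 of Aaed1 at chr13:64306240-64306340.
Ctse: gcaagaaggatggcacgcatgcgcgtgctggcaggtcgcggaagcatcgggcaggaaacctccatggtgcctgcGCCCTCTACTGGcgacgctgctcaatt
Aaed1: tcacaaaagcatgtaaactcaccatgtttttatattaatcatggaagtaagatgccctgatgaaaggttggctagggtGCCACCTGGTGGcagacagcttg

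The next pair holds the TEAD sequence ACATTCC. It lies in intron 1 of St5 at chr7:109609040-109609140 and in intron 13 of Zranb3, a DNA translocase gene, at chr1:127975889-127975989.
St5: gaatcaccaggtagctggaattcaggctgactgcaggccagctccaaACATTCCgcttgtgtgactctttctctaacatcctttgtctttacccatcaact
Zranb3: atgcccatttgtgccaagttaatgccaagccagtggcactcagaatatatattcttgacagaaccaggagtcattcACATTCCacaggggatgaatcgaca

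The third pair holds the RUNX sequence TGTGGTT. It lies in intron 1 of Arhgap28 at chr17:67989156-67989256 and in intron 4 of Chl1, a cell adhesion gene, at chr6:103649149-103649249, which was the highest member of all.
Arhgap28: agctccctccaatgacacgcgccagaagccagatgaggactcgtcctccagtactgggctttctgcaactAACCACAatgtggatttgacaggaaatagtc
Chl1: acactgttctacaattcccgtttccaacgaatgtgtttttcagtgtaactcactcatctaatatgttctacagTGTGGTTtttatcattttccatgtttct

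The last window, from intron 1 of the phosphatase gene Ppm1l at chr3:69356340-69356440, has none of these motifs but has 2 sequences that differ from the AP-1 heptamer by 1 base. Its fold enrichment was the highest among members of this kind in first or later introns, with the same chromosome left out.
Ppm1l: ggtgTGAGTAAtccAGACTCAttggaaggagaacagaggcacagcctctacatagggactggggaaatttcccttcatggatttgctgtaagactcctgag

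Peak height was read from the deposited fold enrichment, which is the number of fragments at the summit over the number expected locally, each with 1 added. The members had a median fold enrichment of 5.33 (interval 5.25 to 5.43), with quartiles of 3.94 and 7.77, and ranged from 1.41 to 60.4. The number of fragments at the summit, solved from the fold enrichment and the −log10 p of each peak, had a median of 24 and quartiles of 17 and 40, and the lowest member had 10. The median width was 269 bp, and 1783 members (13.4%) reached a fold enrichment of 10. The 4868 intronic peaks with the heptamer were higher, with a median fold enrichment of 6.42 (6.30 to 6.57), 30 fragments at the median summit, and 21.6% at 10 or above. The median of the members was 0.830 times that of the heptamer peaks. Intergenic peaks were chosen by the same conditions outside coding genes, with the summit also in no noncoding gene. Of the members, 486 (3.66%) lay in a noncoding gene as well. The 14624 intergenic peaks had a median of 5.50 (5.40 to 5.52), close to that of the members. The 261 members at most 200 bp beyond the 1-kb limit had a median fold enrichment of 4.61, and the 313 peaks at most 200 bp inside it that met the other conditions had 4.54.

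First introns held members at a higher density than later introns, and the members there were of nearly the same height. To place a summit in a first or a later intron, 1 representative transcript was taken for each coding gene and its introns were counted from the 5′ end. Of the 13273 members, 12966 lay in exactly 1 coding gene and 307 in several. Of the 12966, 3507 were in a first intron, 8253 in a later intron and 1206 outside the introns of the representative transcript, for example in front of its first exon. The share in first introns was 29.8% (29.0 to 30.7%) of the 11760 that could be placed. It was 30.5% (29.2 to 31.9%) for the heptamer peaks, and the difference of −0.69 percentage points had an interval from −2.31 to 0.89.

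First introns make up only a part of the sequence in which a member could be found. Eligible bases, those in exactly 1 coding gene, in no exon, not soft-masked and more than 1 kb from any TSS, came to 138.0 Mb in first introns and 412.5 Mb in later ones. The density was 25.4 members per eligible Mb (24.6 to 26.3) in first introns and 20.01 (19.6 to 20.4) in later introns, a ratio of 1.27 (1.22 to 1.32). The heptamer peaks had a ratio of 1.31 (1.23 to 1.401), from 9.60 and 7.31 per Mb, so that the preference for first introns was of like size with and without the AP-1 consensus. By intron number, the density was 25.4 per Mb in the first, 22.2 in the second, 20.5 in the third, 21.7 in the fourth and 18.7 in introns from the fifth on. The last introns of genes with at least 2 had 19.6 per Mb. On the single chromosomes the ratio ranged from 0.963 on chromosome 16 to 1.60 on chromosome 14, with a median of 1.28. It was above 1 on 19 of 20 chromosomes, and its interval was above 1 on 13 and below 1 on 0.

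The ratio changed with the distance from the promoter, as the plot of density by distance shows. Distance was measured from the summit to the start of the representative transcript. From 2 to 5 kb the density was 23.7 per Mb in first and 17.0 in later introns, a ratio of 1.39 (1.16 to 1.68). From 10 to 20 kb it was 30.6 and 23.6 (ratio 1.296, 1.17 to 1.43), and from 20 to 50 kb it was 29.5 and 24.7 (ratio 1.19, 1.10 to 1.29). From 50 to 100 kb the order was the opposite, with 20.8 in first and 23.9 in later introns (ratio 0.873, 0.782 to 0.973). Beyond 100 kb the densities were 15.7 and 15.6. At the later-intron densities of the same distances, first introns would have held 3006 members, and the 3507 found were 1.17 times that number. The median first-intron member was 18.3 kb from its TSS and the median later-intron member 64.8 kb.

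**Figure D1:**
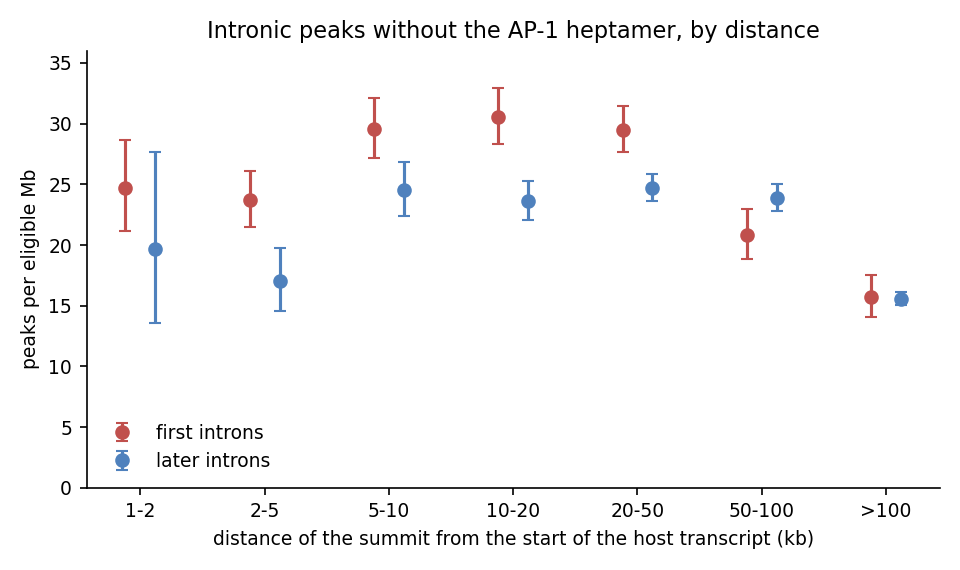
Members per eligible Mb (vertical axis, from 0) against the distance of the summit from the start of the host transcript in kb, for first introns (red) and later introns (blue), with bars for 95% Poisson intervals. First introns are above later introns in each range up to 50 kb, with 30.6 against 23.6 per Mb at 10 to 20 kb, below them at 50 to 100 kb, and level with them beyond 100 kb at 15.7 against 15.6.

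Intron length gave a different view of the same sites. Taken over members, the median length of the intron was 41.2 kb for first introns and 15.2 kb for later introns. The median of all first introns, each counted once, was 2.84 kb. Long introns hold more sequence and weigh more in the medians over members, so that these lengths are not directly comparable. Among introns under 5 kb the densities of first and later introns were not distinguished, at 21 and 21.6 per Mb for lengths of 2 to 5 kb (ratio 0.974, 0.797 to 1.18). The ratio rose to 1.31 (1.18 to 1.45) for introns of 10 to 20 kb and to 1.48 (1.37 to 1.60) for those of 20 to 50 kb, where 33.8 and 22.9 members per Mb were found. Of the first introns of 50 to 100 kb, 51.1% held at least 1 member, against 43.7% of later introns of that length. Introns of at least 10 kb were also split into 3 equal parts from the 5′ end. Of the first-intron members there, 28.9% were in the first part, 34.2% in the middle and 36.9% in the last. For later introns the shares were 31.4%, 34.2% and 34.3%. Peaks at most 1 kb from a TSS were left out by the rule, and the parts were not set against their eligible sequence. The shares thus cannot show whether members crowd towards the promoter.

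The preference was also found in the pooled density of genes with long eligible sequence in both kinds of introns. There were 2378 genes with at least 10 kb of eligible sequence both in the first and in later introns, which held 2215 and 3649 members, a pooled ratio of 1.28 (1.22 to 1.35). The density was higher in the first intron in 820 of these genes and in the later introns in 848, and 710 genes had no member in either. With so few members per gene, these counts cannot show in how many genes the preference held.

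The preference was found in genes with an open promoter and not in the others. In genes with a promoter peak, first introns held 36.6 members per Mb (35.2 to 37.9) and later introns 25.6 (25 to 26.3), a ratio of 1.43 (1.36 to 1.49). In genes without one, the densities were 11.5 (10.7 to 12.4) and 12.8 (12.3 to 13.3), a ratio of 0.902 (0.828 to 0.981). The intervals of both ratios do not overlap, and they cover counting error only.

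**Figure D2:**
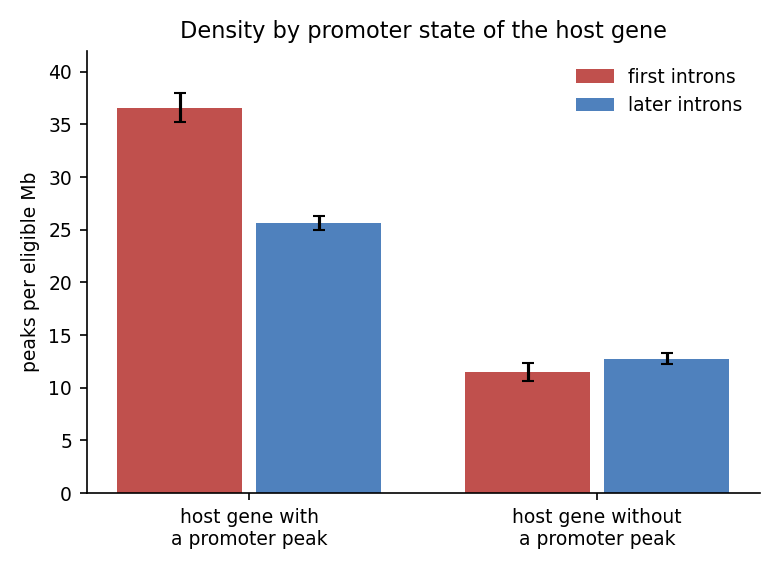
Members per eligible Mb (vertical axis, from 0) in first (red) and later (blue) introns of genes with and without a promoter peak, with 95% Poisson intervals. The first-intron bar is the higher one in genes with a promoter peak, at 36.6 against 25.6, and the lower one in genes without, at 11.5 against 12.8.

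Promoter state separated the genes also when introns were pooled. The 11788 genes with a promoter peak held 9699 members, or 28.9 per eligible Mb (28.3 to 29.5), and the 10150 genes without held 3267, or 12.4 (12.0 to 12.8), a ratio of 2.34 (2.24 to 2.43). The ratio was lowest, at 1.26 (1.13 to 1.401), for genes with 5 to 20 kb of eligible sequence and highest, at 3.32 (3.12 to 3.53), for genes with 100 kb or more, where genes without a promoter peak had 8.25 members per Mb. Of the 5082 genes with at least 1 member, 70.1% (68.9 to 71.4%) had a promoter peak, against 48.8% (48.0 to 49.5%) of the 16856 genes with none. Genes with members had far more eligible sequence, with a median of 37.5 kb against 3.16 kb. Among genes of like eligible length the gap varied. The shares were 68.6% (66.0 to 71.1%) and 61.6% (60.2 to 63.0%) at 5 to 20 kb, 72.6% and 62.0% at 20 to 50 kb, 74.7% (71.9 to 77.2%) and 48.9% (44.4 to 53.5%) at 50 to 100 kb, and 65.3% and 19.9% at 100 kb or more. Heights hardly differed, with a median fold enrichment of 5.35 for members in genes with a promoter peak and 5.29 in the others.

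Member height in first introns was 0.968 times that in later introns, with medians of 5.25 (5.14 to 5.33) and 5.43 (5.30 to 5.52). The shares at or above 10-fold were 12.3% and 14.0%. The number of fragments went the other way, with medians of 25 in first and 24 in later introns, and so did the −log10 q, with medians of 10.4 and 10.1. Which kind of intron had the higher members thus depended on the measure. The heptamer peaks had medians of 6.04 and 6.57, a ratio of 0.920. On 13 of 20 chromosomes the median of the members was lower in first introns, with ratios from 0.869 to 1.12.

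Members were often near other peaks. The nearest other peak of any kind was at a median of 5.40 kb for first-intron members and 7.43 kb for later-intron members. It was within 5 kb for 47.4% (45.7 to 49.0%) and 37.6% (36.6 to 38.7%). For all members the share was 41.0%, and for the heptamer peaks 40.7%. Of the 5082 host genes, 1961 (38.6%) also held an intronic peak with the heptamer, which was 70.7% of the 2773 genes that held one. Among all 21938 coding genes, 5082 held a member and 2773 an intronic heptamer peak. Host genes had more eligible sequence than genes without a member, with medians of 37.5 and 3.16 kb. The part of length in this overlap was not tested.

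The sequence at the summits was compared with windows of the same length centred 500 bp to either side of each summit. A motif was counted once per window, on either strand, and the ratio is the share of summit windows over the share of flank windows. In all, 39 motifs and the 1-base variants of the AP-1 heptamer were searched. The ratio had an interval above 1 for 24 of these 40 and below 1 for 7. A match is a run of letters and does not show that the factor was bound.

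The CTCF core had by far the highest ratio among motifs found in at least 50 members. It was in 664 members, or 5.00% (4.65 to 5.39%), against 0.0603% of the flanks, a ratio of 83.0 (50.7 to 146). Among all peaks of the library 3.19% of the summit windows held it. It was nearly absent from the heptamer peaks, at 0.246%, and somewhat more frequent in the intergenic peaks, at 5.54% (members minus intergenic peaks −0.54 percentage points, −1.06 to −0.01). The 664 members were of middling height. Only 3.31% of them reached 10-fold, against 14.0% of the members without the core, while their median of 5.08 (4.99 to 5.25) was little below the 5.36 of the others. They were narrower, with a median width of 183 bp against 276 bp. With the members split into 4 groups of nearly equal size by fold enrichment, the core was in 3.55% of the lowest group, in 7.46% and 6.93% of the middle groups and in 2.08% of the highest.

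The CTCF core did not sit at the summit but to its side. The centre of the match was 20 to 40 bp from the summit in 487 of the 664 windows (73.3%) and less than 10 bp away in 43 (6.48%). In the Ctse and Aaed1 windows above it is seen 29 and 33 bp to the right. The median distance was 29.5 bp, in first and in later introns alike, and 28.5 bp in intergenic peaks. For TEAD the share at 20 to 40 bp was 43.1% and that under 10 bp was 24.2%. The corresponding shares were 45.1% and 19.1% for RUNX, and 39.0% and 25.3% for the AP-1 variants. In the plot of matches around the summits, the CTCF core forms a pair of peaks on both sides of the summit. The other motifs are raised over a broad region around it and are highest within 40 bp of it, though not always at the summit itself.

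**Figure D3:**
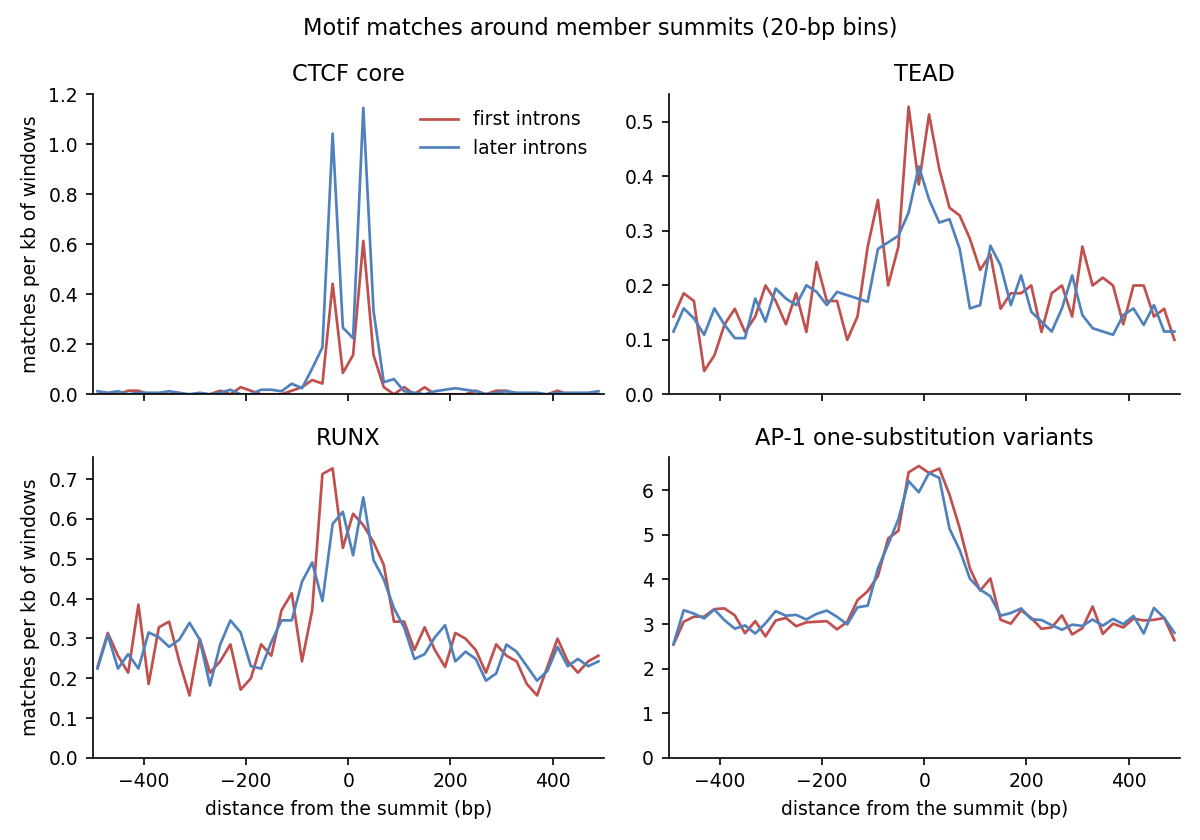
Matches per kb of sequence (vertical axes, from 0) against the distance from the summit in bp, in 20-bp bins, for 4 motifs in first (red) and later (blue) introns. CTCF core matches gather 20 to 40 bp to either side of the summit and are more frequent in later introns. The other motifs are raised over a broad region around the summit and are highest within 40 bp of it.

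Members with the CTCF core were the main difference in sequence between first and later introns. The core was in 99 first-intron members, or 2.82%, and in 492 later-intron members, or 5.96%, a difference of −3.14 percentage points (−3.87 to −2.36). Per eligible Mb these were 0.717 and 1.19, a ratio of 0.602 (0.480 to 0.748), where all members had 1.27. The share was lower in first introns on 17 of 20 chromosomes. It was lower in each range of distance from the TSS, for example 2.17% (1.25 to 3.76%) against 8.88% (6.64 to 11.8%) at 5 to 10 kb and 2.25% (1.47 to 3.41%) against 6.84% (5.80 to 8.05%) at 20 to 50 kb, and the intervals were apart from 5 to 50 kb but overlapped below 5 kb and beyond 50 kb. It was lower both in genes with a promoter peak, at 2.36% against 5.16% (difference −2.81, −3.58 to −1.98), and in genes without, at 4.67% against 8.02% (difference −3.36, −5.13 to −1.26). Over both kinds of introns, the core was in 4.20% of the members in genes with a promoter peak and in 7.41% of those in genes without one.

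The TEAD sequence was in 466 members, or 3.51%, against 1.37% of the flanks, a ratio of 2.56 (2.23 to 2.94). It was in 2.62% of all summit windows and 2.47% of those of the heptamer peaks. Intergenic peaks had it in 3.41% (members minus intergenic peaks 0.10 percentage points, −0.33 to 0.53). First introns had it in 4.13% and later introns in 3.24% of their members, a difference of 0.90 percentage points (0.17 to 1.70). In genes with a promoter peak the difference was 1.297 points (0.46 to 2.21). In genes without one it was −0.43 points (−1.80 to 1.29). The RUNX sequence was in 712 members, or 5.36%, against 2.62% of the flanks, a ratio of 2.05 (1.84 to 2.28), and was found equally in first introns, at 5.59%, and later introns, at 5.32%. Heptamer peaks had it in 3.60% and intergenic peaks in 5.03% (members minus intergenic peaks 0.34 points, −0.18 to 0.86). RUNX members were somewhat higher than the rest, with a median fold enrichment of 5.77 (5.40 to 6.04) against 5.30, and the share with RUNX was 4.24% in the lowest and 6.57% in the highest of the 4 groups. TEAD was in 3.49% of the lowest and 3.65% of the highest group. Both sequences were in the same window in 35 members. The full NFI palindrome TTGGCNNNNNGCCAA was in only 2 members, the higher of which was in intron 13 of Herc6 with a fold enrichment of 18.8, whereas the shorter NFI sequence TTGGCA was in 8.33% of the members, a ratio of 1.64 (1.51 to 1.78).

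The RUNX sequence was more often written in the direction of the host gene. Among members in 1 coding gene with a match on 1 strand, TGTGGTT was on the sense strand in 436 and on the antisense strand in 256, so that 63.0% (59.4 to 66.5%) were sense. The flanks had 57.9% sense (54.1 to 61.6%), an imbalance in the same direction with an interval that overlaps that of the summits. In first and later introns the sense share at the summit was 63.6% and 64.3%. TEAD was sense in 48.0% (43.4 to 52.6%) and the CTCF core in 48.7% (44.9 to 52.5%).

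Other motifs above the flanks were the GC box GGGCGGG of SP factors at 1.93% of the members and a ratio of 2.59 (2.14 to 3.13), the AP-2 sequence GCCNNNGGC at 4.26% and 2.22 (1.96 to 2.502), and the ETS sequence CCGGAAG at 0.670% and 2.09 (1.54 to 2.85). The SOX sequence CATTGTT was at 3.17% and 2.08 (1.81 to 2.39). The cAMP response element TGACGTCA was in 30 members (0.226%), a ratio of 4 (2.09 to 8). Among all peaks of the library, the GC box was in 6.16% of the summit windows and the AP-2 sequence in 5.32%. The ETS sequence was in 2.41% and the cAMP response element in 0.503%. These 4 were thus rarer in the members than in all peaks, whereas the SOX sequence, at 2.35% of all peaks, was more frequent in the members. Below the flanks were the homeobox sequence TAATTA with 1.07% and 0.361 (0.30 to 0.432), the MEF2 sequence TAAAAATA with 0.531 (0.432 to 0.648) and the TCF/LEF sequence ATCAAAG with 0.596 (0.486 to 0.727). The GATA sequence AGATAAG had 0.606 (0.482 to 0.757) and the E-box CACCTG, to which SNAIL and ZEB repressors bind, 0.514 (0.464 to 0.569). The G+C content had a median of 48.5% at the summits and 45.5% in the flanks, and its part in these ratios was not tested. Of the other motifs, the GC box was more frequent in first than in later introns by 0.56 points (0.02 to 1.16), the MAF/NRF2 sequence TGACNNNGC by 1.20 points (0.23 to 2.22) and the IRF sequence GAAANNGAAA by 0.51 points (0.11 to 0.98), and CACCTG less frequent by 1.44 points (−2.09 to −0.73). CACCTG shares letters with one form of the CTCF core, as in the Aaed1 window.

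**Figure D4:**
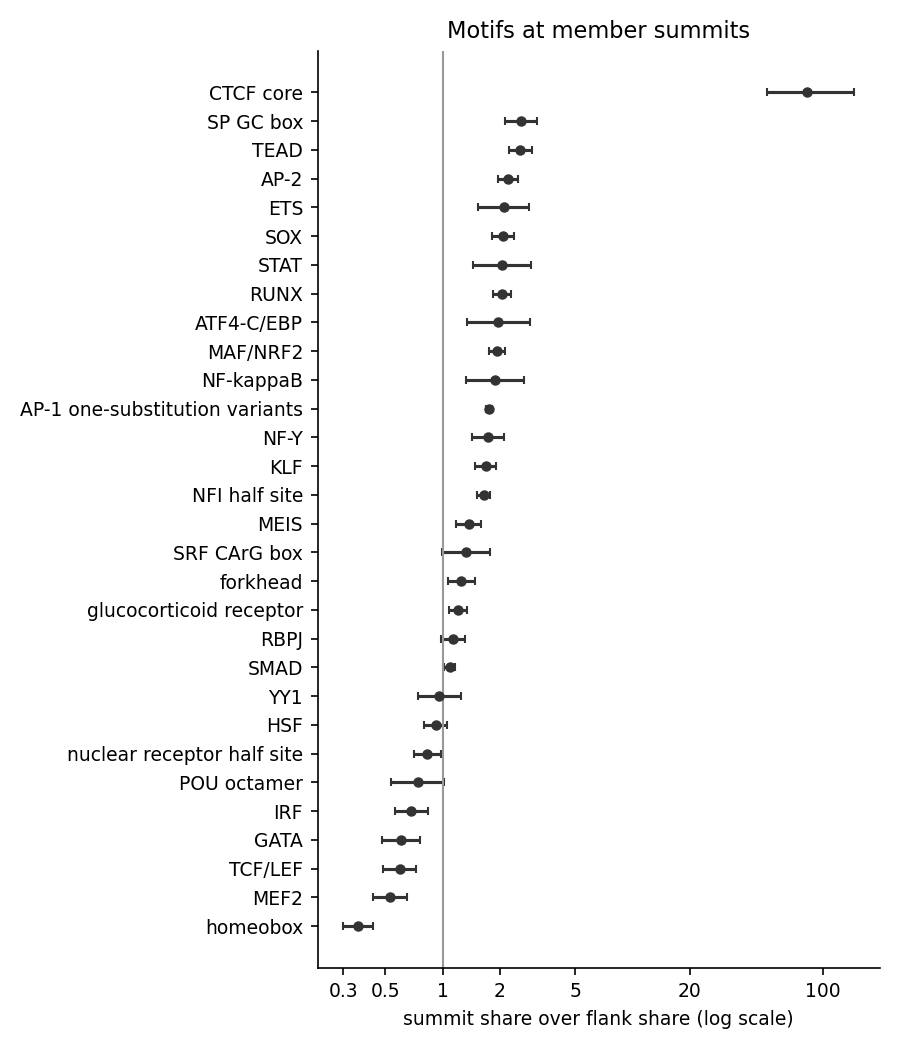
Share of member summit windows over share of flank windows (horizontal log axis, with a line at 1) for the motifs other than E-boxes found in at least 50 members, with 95% intervals. The CTCF core stands at 83.0, the TEAD, GC box, AP-2, SOX and RUNX sequences lie between 2.05 and 2.59, and the homeobox sequence is lowest at 0.361.

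Sequences 1 base away from the AP-1 heptamer were common at the summits. There are 20 such variants, or 19 when a sequence and its reverse complement are counted once, and 6004 members (45.2%) had at least 1, against 25.7% of the flanks, a ratio of 1.76 (1.70 to 1.82). A variant was in 37.6% of all summit windows and in 38.0% of those of the heptamer peaks. Intergenic peaks had one in 42.9% (members minus intergenic peaks 2.33 points, 1.17 to 3.50). The variants were unequal. TGAATCA was in 1053 members (7.93%, ratio 5.97, 5.28 to 6.75) and TGACTAA in 982 (7.40%, ratio 7.01, 6.14 to 8.04). TTACTCA was in 664 members (ratio 4.07), TGACACA in 642 (2.34), and TGACTCG, which has a CpG, in 242 with the highest ratio of 7.33 (5.57 to 9.78). TGTCTCA, changed in the third base, was as frequent as in the flanks, at a ratio of 0.999 (0.881 to 1.13). In all, 14 of the 19 had an interval above 1 and 0 had one below 1. Members with a variant were higher, with a median fold enrichment of 5.72 (5.58 to 5.78) against 5.10 (4.99 to 5.23), and the share with a variant rose over the 4 groups, from 39.2% to 43.4%, 45.9% and 52.5%. First introns had a variant in 47.3% and later introns in 44.6% of their members, a difference of 2.68 points (0.71 to 4.65).

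The heptamer itself was not always far away. It was elsewhere in the same peak, outside the 101 bp, in 2769 members (20.9%), and within 500 bp of the summit in 30.5%. The latter share was 31.5% in first and 30.4% in later introns. At least 1 of the TEAD, RUNX, NFI palindrome and CTCF core motifs was in 1782 members (13.4%), and 6150 members (46.3%) had neither these nor an AP-1 variant. The latter had a median fold enrichment of 5.06 (4.99 to 5.196).

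A search of all 7-base sequences led to the same 2 kinds of sites without a list of motifs. Of the 4666 sequences, counted together with their reverse complements, that were in at least 100 member windows, 127 had a ratio of at least 2, and the median ratio was 1.02. Of the 10 with the highest ratio, 4 were 1-base variants of the heptamer: CGAGTCA (7.33), TGACTAA (7.01), TGAATCA (5.97) and CGACTCA (5.30). ACGAGTC (5.02) shares 6 bases with the first of these. CCACTAG (5.11), in 537 members, is a part of the CTCF core and was in 2.42% of first-intron and 4.77% of later-intron members. The remaining 4 were rich in C and G with a CpG, namely AGGGCGC (6.04), GGCGCCA (5.61), AGCGCCC (4.75) and GGCGCCC (4.67), each in 105 to 159 members. Like CCACTAG, each of the 4 was less frequent in first-intron members, at 0.513 to 0.855%, than in later-intron members, at 0.860 to 1.36%. In the Ctse window above, GCGCCCT, the reverse complement of AGGGCGC, overlaps the match to the CTCF core. Windows with 5 or more CpGs made up 3.08% of the members, and were more frequent in first introns, at 3.88% (3.29 to 4.57%), than in later introns, at 2.57% (2.25 to 2.93%). They made up 1.5% of the heptamer peaks and 5.79% of the intergenic peaks.

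The 12966 members in 1 coding gene were spread over 5082 of 21938 coding genes. Of these, 2590 genes had 1 member, 1787 had 2 to 4, 541 had 5 to 9 and 164 had 10 or more. The 705 genes with 5 or more held 44.4% of the members. The most, 67, were counted in Gm20388 on chromosome 8, whose annotated span of 4435 kb overlaps 73 other coding genes, and all of them were in its first intron. Next were Syn3, a synapsin gene, with 27 members in 444 kb, all in later introns, and Dlgap2, a gene of the postsynaptic scaffold, with 24. Neither Syn3 nor Dlgap2 had a promoter peak. Fgfr2, a receptor for fibroblast growth factors, had 24, of which 1 was in an intron of its representative transcript. Its annotated span of 2961 kb overlaps 30 other coding genes. Slc39a11, a zinc transporter gene, and Magi2, a scaffold gene, had 23 each, and Gas7, first found as a gene of growth arrest, had 22. Of the 22 in Gas7, 2 were in the first and 6 in later introns of its representative transcript, and the rest were outside these. Nsmce2, a SUMO ligase gene, Fmn1, a formin gene, and Rad51b, a gene of homologous recombination, had 21 each. Of these, Nsmce2 and Rad51b had all members in later introns, at 126 and 55.0 per eligible Mb.

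The highest densities among genes with at least 5 members were found in short genes, where they rest on few peaks. Vmn2r13, a pheromone receptor gene, had 5 members in 10.1 kb of eligible sequence, or 495 per Mb (161 to 1155), and no promoter peak. Apopt1, Dcps, Sfi1, Thap4 and Slpi followed with 5 to 8 members each, at 231 to 257 per Mb. No member of Apopt1 or Slpi was in an intron of the representative transcript. Dcps, a gene of mRNA decapping, had 8 members of low height (median fold enrichment 3.95). Pdlim1 and Pxn (paxillin), genes of the actin cytoskeleton and of focal adhesions, had 6 and 5 members at 209 per Mb, with 3 and 5 of them in the first intron. Dupd1 (205) and Manba (200.7), a lysosomal mannosidase gene, came last. Of these 10 genes, all but Vmn2r13 and Dupd1 had a promoter peak.

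The 4 lists of fibroblast genes and the epithelial list held members at a higher density than all coding genes, and the neuronal list at a far lower one. The density over all coding genes was 21.6 per eligible Mb (21.3 to 22.0), with at least 1 member in 5082 of 21938 genes. All coding genes with a promoter peak had 28.9 per Mb (28.3 to 29.5). That value lies within the intervals of the growth factor receptor and epithelial lists and below those of the other lists of fibroblast genes. The part of length and promoter state in the higher densities was not tested. The 39 genes of the actin cytoskeleton and adhesion had 144 members, or 52.2 per Mb (44.0 to 61.4), in 28 genes. Lpp had 17, Tns3 (a tensin gene) 14 and Pdlim5 12, all with an open promoter. The 31 matrix genes had 72 members, or 45.8 per Mb (35.8 to 57.6), in 16 genes. These were led by Ltbp1, whose product stores latent TGF-beta, with 16, Fbn1 (fibrillin 1) with 11 and the basement membrane collagen gene Col4a2 with 8. The 40 mesenchymal TF genes and AP-1 partners had 143, or 41.1 per Mb (34.7 to 48.4), in 26 genes, with Glis3 (14), Bach2 (12) and Runx2 (11) first. The 26 genes of growth factor receptors and TGF-beta signalling had 87, or 35.4 per Mb (28.3 to 43.6), with 24 in Fgfr2, 9 in Tgfbr3 and 8 in Met. The 24 of Fgfr2 were counted over its annotated span, which overlaps 30 other coding genes, and 1 was in an intron of its representative transcript. First introns held 46 of the 144 actin and adhesion members and 14 of the 72 matrix members.

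The 30 synaptic and neuronal genes had 86 members in 21.2 Mb, or 4.05 per Mb (3.24 to 5.01), although 21 of them had at least 1. Their median eligible length was 701 kb, against 23.9 to 52.8 kb in the 4 lists of fibroblast genes and 6.17 kb over all coding genes. All genes with 100 kb or more of eligible sequence and no promoter peak had 8.25 members per Mb. The part of length and promoter state in the low density of the neuronal list was not tested. Gria1, a glutamate receptor gene, held 16 and stood apart from the list at 65.0 per Mb (37.2 to 106), with all 16 in later introns and no promoter peak. Opcml had 13 and Nlgn1 10. The 26 blood cell genes had 27 members, or 26.4 per Mb (17.4 to 38.5), of which 11 were in Fyb, 5 in Dock2 and 2 in Inpp5d. None of these 3 had a promoter peak. The 25 striated muscle and liver genes had 25, or 18.9 per Mb (12.2 to 27.9), with Ryr1 (5), Myom1 (4) and Neb (4) first. The 23 epithelial genes had 15, or 47.7 per Mb (26.7 to 78.6), over only 0.315 Mb, with 5 each in Cdh1 (E-cadherin) and Grhl2, and 2 in Ehf. A promoter peak was present in 36 of the 39 actin and adhesion genes, 39 of the 40 TF genes, 25 of the 26 signalling genes and 24 of the 31 matrix genes. It was present in 5 of the 30 neuronal, 4 of the 26 blood, 6 of the 23 epithelial and 5 of the 25 muscle and liver genes. The share over all coding genes was 53.7%.

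**Figure D5:**
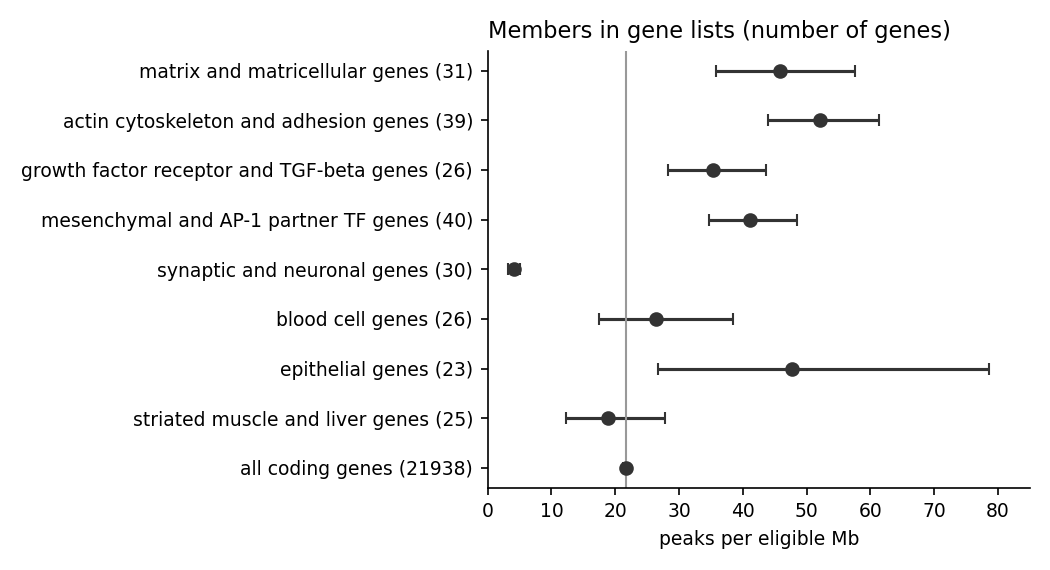
Members per eligible Mb of intron (horizontal axis, from 0) for 8 gene lists and all coding genes, with the number of genes in brackets and 95% Poisson intervals. The line marks all coding genes at 21.6, the 4 lists of fibroblast genes lie at 35.4 to 52.2, the epithelial list lies within that range at 47.7 with a wide interval, and the neuronal list lies at 4.05.

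The highest single members were in very different sequence. The first in later introns was the Chl1 site printed above, from 103649055 to 103649299 on chromosome 6, with 1384 fragments at the summit, 21.9 expected and a fold enrichment of 60.4. The 31 bases around its summit occur 4 times in the reference chromosomes, and the whole 101 bp once. It was followed by 2210408I21Rik at 44.4 (243 fragments), Camk1d, a calmodulin-dependent kinase gene, at 37.7 (204), Kctd16 at 28.4 (231) and Sfi1 at 24.9 (275). In first introns the highest were Cldn34d, a claudin gene on chromosome X, at 26.0 (159 fragments), Gm15127 at 22.1 (83), Ppm1l at 21.1 (120), E030030I06Rik at 20.1 (259) and Aida at 19.9 (389). The central 31 bases of Cldn34d occur 2 times and those of the other 8 sites once. A 1-base variant of the heptamer was in 3 of these 10 windows, those of Ppm1l, Chl1 and Kctd16, a RUNX match in that of Chl1, and a TEAD or CTCF core match in none. Of the members placed in first or later introns, the 4 highest were thus in later ones.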

How the data were processed

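The authors aligned paired-end ATAC-seq reads to mm10 with STAR 2.5.3a, keeping unique mappers on the 19 autosomes and on X and Y. Duplicates were removed with Picard and peaks were found with MACS2 2.1.1.20160309 on whole fragments. Versions are those in the submitters' processing notes. For each peak the authors deposited a score of 10 times the −log10 q, the −log10 q and −log10 p themselves and a fold enrichment. No shift of fragment ends is described, and peaks were not filtered here by a blacklist. The read number of the library is not given in the peak list.

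Annotation was GENCODE M21 and sequence the GRCm38 reference of the same build. Coordinates count from 1. The representative transcript of a gene was chosen by APPRIS rank, then CCDS, then span. The number of fragments at a summit was found by bisection from its fold and p, and the p was matched within 0.01 for all but 3 of 63456 peaks. Intervals are Wilson for shares, Newcombe for their differences, Poisson for densities, exact conditional for ratios and order-statistic for medians, at 95%. Scripts were tested on simulated data. The tools were SciPy 1.17.1, NumPy 2.4.6, matplotlib 3.10.9 and pandas 2.3.3 under Python 3.11.15.

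Members, motifs and gene lists were chosen with earlier results of these data known. Named were the 10 genes with the most members, the 10 with the highest density among those with at least 5, the 5 highest members in first and in later introns, the first 3 genes of each list, the 10 leading 7-base sequences by ratio that were present in at least 100 windows, and the highest member with each main motif in first and in later introns, leaving out chromosome 18. For the AP-1 variants it was the highest such member with none of the other main motifs. Krt8, Spi1 and Gria2, single AP-1 variants and motifs outside the main ones were named after their values were seen.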

Additional observations from a re-analysis of the deposited data

How the results depend on the processing

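No paired analysis was possible because there was 1 library. The 10 results were recomputed under alternatives, 81 values in all, of which 67 stayed within the interval of the main value (counts within 1.5 times). With a fold enrichment of at least 5, the members fell to 7258, the first-intron share was 28.9%, the density ratio of first to later introns 1.21, their height ratio 0.998, the height ratio of members to heptamer peaks 0.915 and the RUNX ratio 2.30. A threshold on height cuts the heights compared. With members more than 5 kb from any TSS, the first-intron share was 27.5%, and host genes had a promoter peak more often than other genes by 18.9 percentage points in place of 21.3. The latter difference was 18.5 points when the peak had to overlap a TSS. Where every coding transcript had to agree on the intron, the first-intron share was 31.5%. The height ratio of members to heptamer peaks was 0.885 at a q of 1e-05 or below, 0.757 when the heptamer was absent from the whole peak, and 0.680 by −log10 q. By −log10 q the height ratio of first to later introns was 1.03 (0.968 to 1.08) in place of 0.968, the only reversal, and the cause was not tested. Leaving out 7 coding genes with spans over 2 Mb, an alternative chosen after seeing the data, gave a first-intron share of 29.4% and a density ratio of 1.26. The density ratio stayed between 1.21 and 1.27 in all alternatives. The CTCF core ratio ranged from 57.7 with flanks 1000 bp away to 102 at a q of 1e-05 or below.

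Intervals cover counting error in 1 library and neither differences between cultures nor dependence between neighbouring peaks. The lowest member had 10 fragments at its summit, and weaker sites are not described, and the fold of a peak depends on the background that its surroundings gave. A promoter without a peak was not detected as open at this depth. First and later are positions in 1 annotated transcript, not in the transcripts these cells make.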
